A study of Homo sapiens with 6 samples.

Results

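The genes described here encode the subunits of the nuclear RNA polymerases and of Mediator, measured by RNA sequencing in HCT116 cells, a human colon carcinoma line. Members were the rows of the gene table whose symbol is POLR1, POLR2 or POLR3 with a subunit letter, or MED with a number. The rule gave 60 of 35106 rows, of which 31 were polymerase rows and 29 were Mediator rows. MED22 was not analysed here. The cells were wild type by label in both groups. One group was given 30 µM curcumin, the yellow polyphenol of turmeric, for 24 h (3 libraries), and the other carried the treatment label none (3 libraries). The dose unit on the labels reads as micrometres and is given here as µM, and no solvent is named for the untreated cells. Whether the replicates were separate cultures is not stated, and the p-values therefore describe the spread between these libraries alone, which may be technical.

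RNA polymerase I (Pol I) transcribes the ribosomal RNA precursor, RNA polymerase II (Pol II) transcribes messenger RNA, and RNA polymerase III (Pol III) transcribes transfer RNA, 5S ribosomal RNA and other short RNAs. The enzymes share a set of small subunits, and each has its own pair of large catalytic subunits. Mediator is a large complex with head, middle and tail modules around a scaffold subunit. It carries signals from transcription factors bound to DNA to Pol II at promoters, and a separate kinase module binds it reversibly. Proliferating cells such as colon carcinoma lines make large amounts of ribosomal RNA, and Pol I is a known drug target in cancer.

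Library totals were 16663562 to 17893056 counts in curcumin-treated and 18154380 to 20311769 counts in untreated cells. Levels are in CPM, which are counts scaled to a common library total with TMM factors. These factors were 0.716 to 0.804 in curcumin-treated and 1.30 to 1.34 in untreated libraries. With TMM the median log2 fold change of the 13718 genes tested was -0.04, and with library size alone it was -0.84, a shift to be kept in mind for every direction given below. Of the 10 colon epithelial markers, 7 had at least 5 CPM in untreated cells (EPCAM, CDH1, KRT8, KRT18, KRT19, CLDN4 and CDX2), whereas CDX1, VIL1 and LGALS4 were at or near 0 there. Their summed level was 7284 to 8493 CPM in curcumin-treated and 4145 to 4861 CPM in untreated libraries. Of 10 markers of leukocytes, endothelium and fibroblasts, CD3E had 0 counts in all libraries, while CD14 averaged 19.2 CPM in curcumin-treated and 0.350 CPM in untreated cells, and PECAM1 14.9 and 0.0936 CPM. Another of these 10, not named here, was the only 1 with at least 5 CPM in untreated cells. The summed level of the 10 was 35.8 to 95.1 CPM in curcumin-treated and 27.5 to 33.3 CPM in untreated libraries. Their part in the results was not tested. In bulk samples, fewer cells of a kind and less RNA per cell cannot be told apart.

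After curcumin, transcripts of these machines moved in both directions, as did all genes tested, of which 27.2% were called higher and 28.9% lower. The genes that follow are examples. The largest Pol I subunit POLR1A and the Pol III subunit POLR3B fell by 2.04 and 2.07 on the log2 scale, whereas POLR1D, shared by Pol I and Pol III, rose by 1.54. Within Pol II, POLR2D fell by 1.45 and POLR2B by 0.78, while POLR2I, POLR2J and POLR2C rose by 1.27, 1.19 and 1.10. Within the middle module of Mediator, MED7 and MED4 fell by 1.88 and 1.37, and MED31 and MED26 rose by 1.48 and 1.44.

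All 60 members passed the filter on low counts and were tested. A gene was called at an adjusted p under 0.05 from edgeR's quasi-likelihood test with Benjamini-Hochberg adjustment over all 13718 genes. Of the members, 20 were higher and 19 lower after curcumin and 21 were not called, a share of 65.0% called. Over all genes tested 56.1% were called, 27.2% higher and 28.9% lower, so the members' share lay near the background. These shares are also the background for the counts by class and by list given below. The groups did not overlap in 41 members, 21 with curcumin above and 20 below, where 64.0% of all genes tested did not overlap, 30.9% above and 33.1% below. Every called member was among these 41, and the other two were MED19 (above) and POLR2M (below).

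The 31 polymerase rows had 12 calls higher, 9 lower and 10 without a call, with a median log2 fold change of 0.20. That median was 0.04 without curcumin replicate 2 and 0.03 without untreated replicate 3. The 29 Mediator rows had 8 calls higher, 10 lower and 11 without a call, with a median of -0.15. With library size alone the split was 2 higher and 16 lower for the polymerases (median -0.61) and 2 higher and 18 lower for Mediator (median -0.96), where 66.1% of all genes were called, 9.62% higher and 56.5% lower. Of the 39 called members, 14 kept their call and direction under all the alternatives run on them. The share of all genes that did so was not counted. Library size alone was among the alternatives, and with 56.5% of all genes lower and 9.62% higher it favoured members that fell. The 14 included POLR1A, POLR1B, POLR2B, POLR2D, POLR2J2, POLR3B, MED4, MED6, MED7 and MED18, which were lower, and POLR1D, MED26 and MED31, which were higher. POLR2J2 had 0 counts after curcumin and is uncertain.

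**Figure D1:**
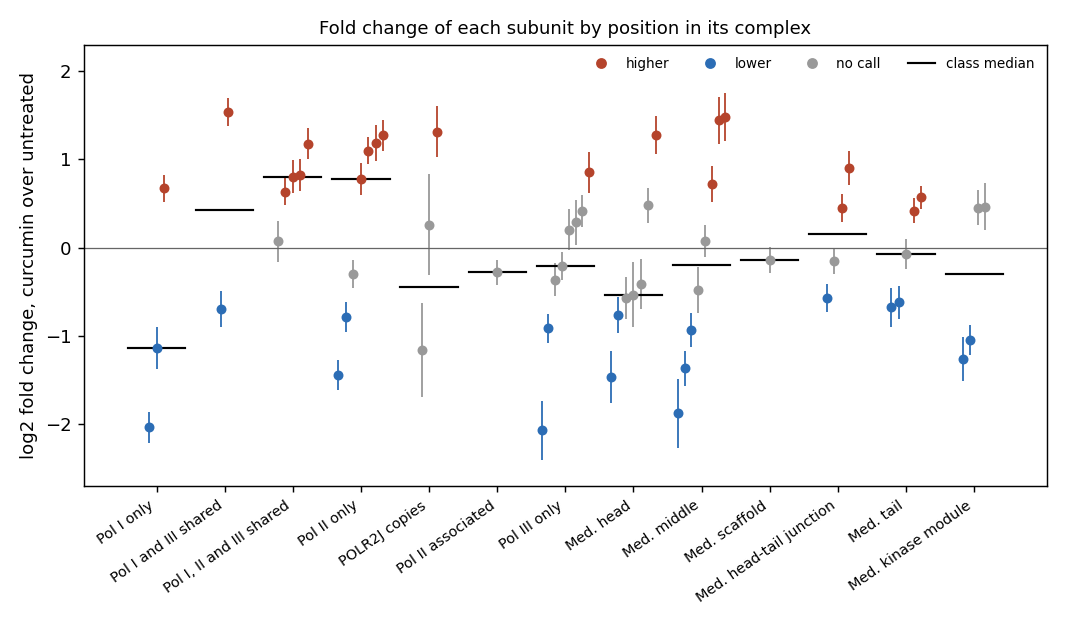
Log2 fold change of each member, curcumin over untreated, by its place in its complex; points are the genes reported singly, bars are standard errors, colours mark the call, and short black lines are class medians. POLR2J2, with 0 counts after curcumin, has no point but counts in its class median. Most classes hold calls in both directions with TMM scaling, as in the Mediator middle module, from -1.88 for MED7 to 1.48 for MED31.

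The promoters of 2 members called higher and 2 called lower with TMM factors are shown. They were chosen, after the values had been seen, because the same short motif stands close to the annotated start in all of them. Each line gives the last 30 bases before the gene's start in RefSeq (GRCh38.p14), 5′ to 3′ on the gene's strand, with the ETS core motif CCGGAAG or its reverse complement CTTCCGG in capitals. The windows are chr17:6651606-6651635 (minus strand) for MED31, chr16:57462649-57462678 (plus) for POLR2C, chr1:28329010-28329039 (plus) for MED18 and chr5:157142866-157142895 (minus) for MED7.
MED31: cacagtgccccgggaCCGGAAGagggagcc
POLR2C: actgaCTTCCGGtgttggcggtggcgccgc
MED18: ggcttccgaCCGGAAGtgagaagaggagga
MED7: ttcttcccggaggagaCCGGAAGttggttt

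MED31 and POLR2C were higher and MED18 and MED7 lower after curcumin, so the motif stood in promoters of genes that moved in opposite directions. ETS factors are a large family of activators of housekeeping and growth genes. In the 250 bases before the start, on both strands, 12 of the 42 members matched in the RefSeq table held the motif (28.6%), of which 4 were called higher, 6 lower and 2 were not called. Of all 27305 genes in that table, expressed here or not, 2795 held it (10.2%). The share among the genes tested here was not counted. The consensus motif of NRF1 was in 4 of the 42 (MED18, POLR2F, POLR2H and POLR3B) and in 1.28% of all genes in that table. That of the heat shock factors was in 1 (MED19), against 0.557% of all genes in that table. A match is a description of the sequence only.

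Pol I is described first. Its catalytic core is built from POLR1A, the largest subunit, and POLR1B, the second largest. POLR1A (chr2:86020216-86106155, minus strand, GENCODE release 29 on GRCh38) had 23.2, 25.0 and 21.6 CPM in curcumin-treated cells, against 75.8, 106 and 105 CPM in untreated cells. All curcumin-treated libraries lay far below all untreated ones. The log2 fold change was -2.04 ± 0.18 (SE, edgeR quasi-likelihood, adjusted p = 1.8e-05), and -1.15 after the trend of each library with transcript length was removed (adjusted p = 0.00074). POLR1B had 25.1, 14.5 and 28.8 CPM in curcumin-treated cells, against 43.2, 54.0 and 53.4 CPM in untreated cells. The groups did not overlap, with curcumin replicate 2 lowest, and the log2 fold change was -1.14 ± 0.24 (adjusted p = 0.0026).

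POLR1E, a subunit that helps Pol I start at ribosomal DNA, had 52.6, 56.0 and 47.8 CPM in curcumin-treated cells, against 34.2, 34.3 and 29.8 CPM in untreated cells. The curcumin-treated libraries were all higher, by 0.67 ± 0.15 on the log2 scale (adjusted p = 0.0037), but with library size alone the value was -0.13. With the length trend removed it was 0.38 (adjusted p = 0.063). A ratio of counts within 1 library does not depend on the scaling, but it can still carry the trend with transcript length. POLR1A is 12749 and POLR1E 2229 bases long. POLR1A over POLR1E was 0.442, 0.446 and 0.452 in curcumin-treated libraries, against 2.21, 3.08 and 3.53 in untreated libraries, and did not overlap.

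POLR1C and POLR1D form a pair of small subunits on which both Pol I and Pol III are assembled. POLR1C had 13.1, 14.4 and 20.2 CPM in curcumin-treated cells, against 25.8, 28.2 and 23.3 CPM in untreated cells. It was lower in all curcumin-treated libraries, with a log2 fold change of -0.69 ± 0.20 (adjusted p = 0.015, and 0.057 without curcumin replicate 2). POLR1D (chr13:27620742-27744237, plus strand) had 166, 182 and 192 CPM in curcumin-treated cells, against 71.9, 51.5 and 62.3 CPM in untreated cells. The groups were far apart, with a log2 fold change of 1.54 ± 0.16 (adjusted p = 4.1e-05). POLR1D was higher also with library size alone, by 0.73 (adjusted p = 0.0016), and by 1.84 after removal of the length trend.

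The ratio of POLR1D to POLR1C counts was 12.7, 12.6 and 9.47 in curcumin-treated libraries, against 2.79, 1.83 and 2.67 in untreated libraries. The ratio between these assembly partners was thus higher in every curcumin-treated library than in any untreated one. The Pol I subunits that the table lists under older symbols also split. ZNRD1, the small zinc-binding subunit, rose by 2.0 ± 0.25 on the log2 scale (adjusted p = 0.00013). CD3EAP, the partner of POLR1E, fell by 1.46 ± 0.20 (adjusted p = 0.00018), and TWISTNB, a stalk subunit, fell by 0.89 ± 0.23 (adjusted p = 0.0071). ZNRD1 lies in the major histocompatibility region of chromosome 6, and its value is uncertain.

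**Figure D2:**
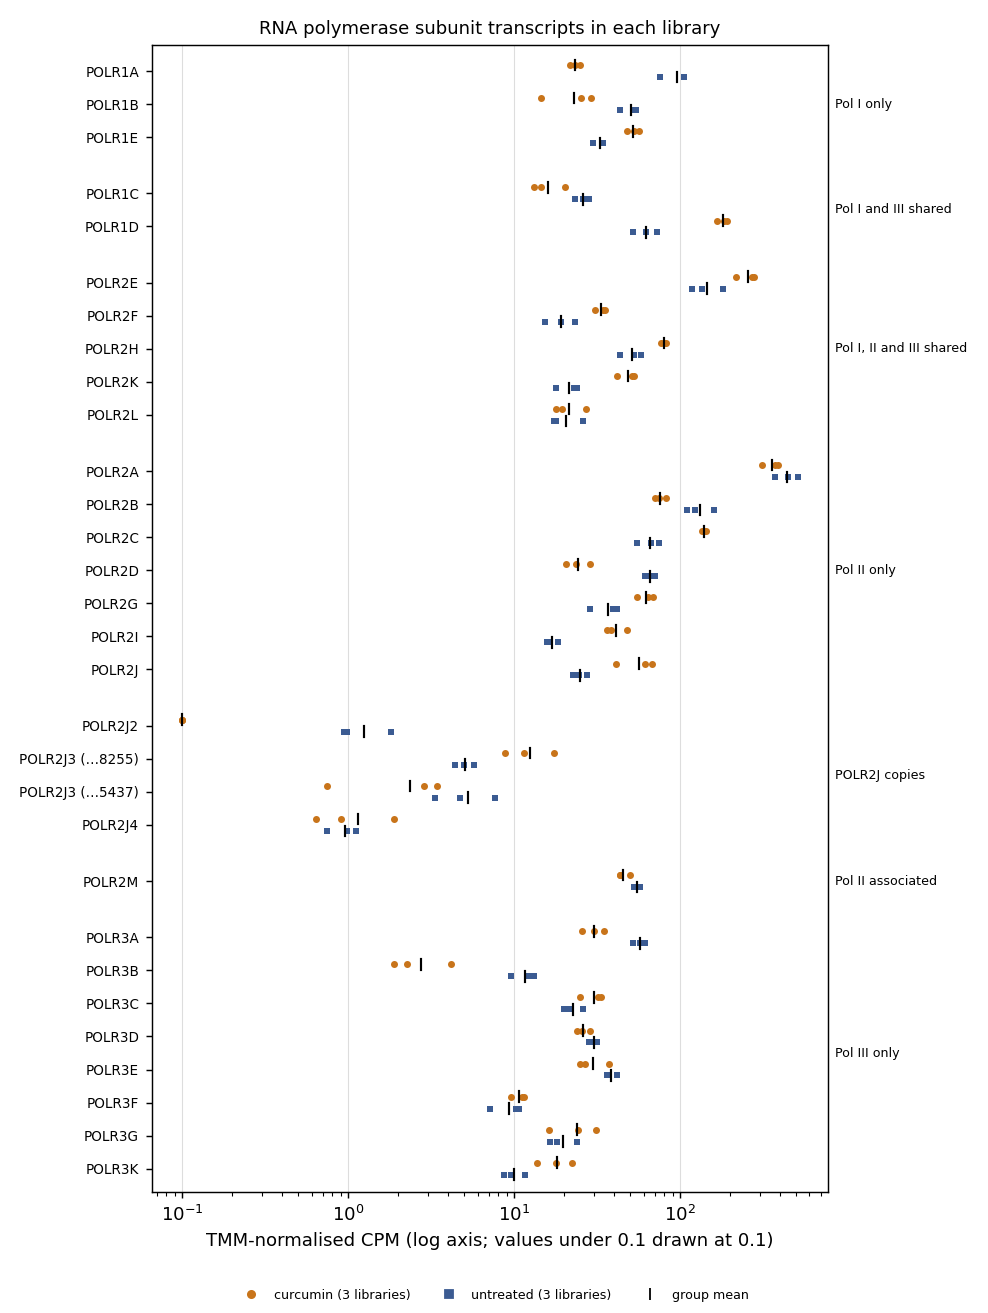
Level of the polymerase subunits reported singly in every library, in TMM-scaled CPM on a log axis, with curcumin-treated libraries (3) and untreated libraries (3) drawn in different colours; black bars are group means and values under 0.1 CPM are drawn at 0.1. The curcumin-treated points of POLR1A, 21.6 to 25.0 CPM, sit clear of the untreated points, 75.8 to 106 CPM, and those of POLR1D, 166 to 192 CPM, sit above 51.5 to 71.9 CPM.

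Pol I, Pol II and Pol III have 5 subunits in common, all small. Of these, 4 were higher after curcumin and 1 was not called, and the class median was 0.80 with TMM factors, but -0.00025 with library size alone. Over all genes tested 27.2% were higher. All 5 are under 3000 bases, and of protein-coding genes under that length 43.2% were higher, with a median of 0.49. POLR2K, a small zinc-binding subunit, had 50.9, 52.9 and 41.7 CPM in curcumin-treated cells, against 22.9, 23.7 and 17.8 CPM in untreated cells. The groups did not overlap, and the log2 fold change was 1.18 ± 0.18 (adjusted p = 0.00036), against 0.38 with library size alone (adjusted p = 0.11). POLR2E had 271, 277 and 217 CPM in curcumin-treated cells, against 136, 180 and 118 CPM in untreated cells. All curcumin-treated libraries were higher, by 0.82 ± 0.18 on the log2 scale (adjusted p = 0.0034), against 0.02 with library size alone.

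POLR2F had 35.1, 34.4 and 30.8 CPM in curcumin-treated cells, against 19.0, 23.2 and 15.2 CPM in untreated cells. Again no library crossed over, with a log2 fold change of 0.80 ± 0.19 (adjusted p = 0.0048), and -0.00025 with library size alone. POLR2H averaged 79.4 ± 2.45 CPM in curcumin-treated and 51.2 ± 7.40 CPM in untreated cells (SD, n = 3 each), a log2 fold change of 0.63 (adjusted p = 0.0053), and -0.17 with library size alone. POLR2L, the small subunit at the assembly platform, averaged 21.4 ± 5.00 CPM in curcumin-treated and 20.4 ± 4.78 CPM in untreated cells (SD, n = 3 each), and its groups overlapped. With the length trend removed, POLR2E kept its call at 0.74 (adjusted p = 0.0092). POLR2F, POLR2H and POLR2K were then not called, at 0.46, 0.15 and 0.26, and POLR2L was lower at -0.95 (adjusted p = 0.007).

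Pol II has 7 subunits of its own here besides the copies of POLR2J, and 4 were higher, 2 lower and 1 was not called. POLR2A (chr17:7484366-7514616, plus strand) encodes the largest subunit, whose C-terminal repeat is phosphorylated through the transcription cycle. It had 390, 373 and 311 CPM in curcumin-treated cells, against 371, 444 and 509 CPM in untreated cells. The groups overlapped through untreated replicate 1, and the log2 fold change of -0.30 ± 0.16 was not called (adjusted p = 0.13). It was -1.10 with library size alone (adjusted p = 0.00022), -0.66 with the 100 most abundant genes left out of the library size (adjusted p = 0.0059), and 0.31 after removal of the length trend (adjusted p = 0.15).

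POLR2B, the second largest subunit, had 74.7, 70.2 and 82.5 CPM in curcumin-treated cells, against 122, 160 and 109 CPM in untreated cells. Every curcumin-treated library was lower, with a log2 fold change of -0.78 ± 0.17 (adjusted p = 0.0029). POLR2D, a stalk subunit with POLR2G, had 23.6, 20.5 and 28.4 CPM in curcumin-treated cells, against 65.4, 70.5 and 61.6 CPM in untreated cells. The groups were well separated, with a log2 fold change of -1.45 ± 0.17 (adjusted p = 8e-05). POLR2G, its partner in the stalk, averaged 62.4 ± 6.69 CPM in curcumin-treated and 36.4 ± 6.74 CPM in untreated cells (SD, n = 3 each). Its log2 fold change was 0.78 (adjusted p = 0.0042), but -0.02 with library size alone and -0.28 with the length trend removed. POLR2D over POLR2G was 0.368, 0.301 and 0.516 in curcumin-treated libraries, against 1.58, 1.80 and 2.14 in untreated libraries.

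POLR2C, which pairs with POLR2J at the start of Pol II assembly, had 144, 140 and 136 CPM in curcumin-treated cells, against 66.8, 74.5 and 54.5 CPM in untreated cells. The curcumin-treated libraries were close together and all higher, by 1.10 ± 0.15 on the log2 scale (adjusted p = 0.00021). POLR2I, a subunit at the jaw of the enzyme that bears on transcript accuracy, had 36.1, 47.9 and 38.0 CPM in curcumin-treated cells, against 15.7, 18.3 and 16.5 CPM in untreated cells. It did not overlap, with a log2 fold change of 1.27 ± 0.17 (adjusted p = 0.0002). POLR2J had 61.0, 67.9 and 41.2 CPM in curcumin-treated cells, against 22.6, 27.6 and 24.5 CPM in untreated cells. All curcumin-treated libraries were higher, by 1.19 ± 0.20 on the log2 scale (adjusted p = 0.00074). After removal of the length trend POLR2C was still called at 0.74 (adjusted p = 0.003), while POLR2I at 0.27 and POLR2J at 0.20 were not. With library size alone POLR2C at 0.29 and POLR2J at 0.39 lost their calls (adjusted p = 0.14 for both), and POLR2I kept its call at 0.46 (adjusted p = 0.046).

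POLR2J has near-identical copies on chromosome 7, so its reads may be split between them. The first coding bases of the copies are shown because they are almost the same (GENCODE release 29 transcripts on GRCh38, minus strand, first base of the start codon at 102478860 in POLR2J, 102671601 in POLR2J2 and 102572521 in both POLR2J3 rows). The capitals in POLR2J mark 3 bases that the copies lack, and the capitals in POLR2J2 mark its 2 substitutions against POLR2J. The line for POLR2J3 holds for both of its rows.
POLR2J: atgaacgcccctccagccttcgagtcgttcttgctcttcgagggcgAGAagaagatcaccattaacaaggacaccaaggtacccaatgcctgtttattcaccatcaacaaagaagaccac
POLR2J2: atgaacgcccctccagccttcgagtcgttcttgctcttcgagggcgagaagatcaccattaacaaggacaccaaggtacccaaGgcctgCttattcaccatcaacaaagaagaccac
POLR2J3: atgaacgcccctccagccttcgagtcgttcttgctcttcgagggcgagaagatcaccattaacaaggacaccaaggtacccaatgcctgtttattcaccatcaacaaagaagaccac

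Of the 302 windows of 50 bases in the POLR2J coding sequence, 265 (87.7%) also occurred in a copy, as did 296 of 883 windows (33.5%) of the whole transcript. POLR2J2 had 0 counts in all 3 curcumin-treated libraries, against 26, 23 and 46 counts in untreated cells. With the floor set at 3 counts per library, it was at least 5.37-fold lower after curcumin. The POLR2J3 row ENSG00000168255 had 17.3, 11.3 and 8.76 CPM in curcumin-treated cells, against 4.36, 5.68 and 5.00 CPM in untreated cells. It was higher in every curcumin-treated library, with a log2 fold change of 1.31 ± 0.29 (adjusted p = 0.0032). The call was lost with library size alone (0.53, adjusted p = 0.16) and, at 0.35, after the trend with length had been taken out (adjusted p = 0.35). The POLR2J3 row ENSG00000285437 had 0.747, 2.86 and 3.44 CPM in curcumin-treated cells, against 3.34, 4.69 and 7.67 CPM in untreated cells. Its groups overlapped and it was not called (-1.16 ± 0.53, adjusted p = 0.089), although it was without curcumin replicate 3 (adjusted p = 0.042). POLR2J4, a pseudogene, had 0.897, 0.635 and 1.88 CPM in curcumin-treated cells, against 0.986, 1.11 and 0.748 CPM in untreated cells, with overlap. How the authors' counting divided reads among these rows is not known, and all are uncertain.

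POLR2M, a factor bound to Pol II and no core subunit, had 49.9, 43.3 and 43.1 CPM in curcumin-treated cells, against 55.9, 52.7 and 57.0 CPM in untreated cells. The groups did not overlap, but the log2 fold change of -0.28 ± 0.14 was not called (adjusted p = 0.12).

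Of the 9 subunits found only in Pol III, 3 were lower, 1 was higher and 5 were not called, with a median of -0.21. POLR3A, the largest subunit, had 34.6, 30.0 and 25.7 CPM in curcumin-treated cells, against 52.2, 57.1 and 61.2 CPM in untreated cells. No library crossed over, and the log2 fold change was -0.92 ± 0.16 (adjusted p = 0.001), and -0.32 after removal of the length trend (adjusted p = 0.17). POLR3B (chr12:106357658-106510198, plus strand), the second largest, had 2.24, 4.13 and 1.88 CPM in curcumin-treated cells, against 9.56, 12.1 and 13.1 CPM in untreated cells. The groups were far apart, with a log2 fold change of -2.07 ± 0.33 (adjusted p = 0.00049).

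POLR3K, the small subunit that serves in termination, had 17.8, 22.3 and 13.8 CPM in curcumin-treated cells, against 9.56, 11.6 and 8.70 CPM in untreated cells. It was higher in every curcumin-treated library, by 0.85 ± 0.23 on the log2 scale (adjusted p = 0.0099, and 0.057 without curcumin replicate 2), but by only 0.05 with library size alone. After removal of the length trend it was 0.17 and not called (adjusted p = 0.57). POLR3B over POLR3K was 0.126, 0.185 and 0.136 in curcumin-treated libraries, against 1, 1.04 and 1.51 in untreated libraries. POLR3B had only 30, 52 and 24 counts in the curcumin-treated libraries. POLR3G, which has the paralog POLR3GL and is known from stem and tumour cells, had 24.1, 30.9 and 16.3 CPM in curcumin-treated cells, against 18.2, 24.0 and 16.4 CPM in untreated cells. Its groups overlapped and it was not called (0.28 ± 0.25, adjusted p = 0.36). POLR3GL was not called either, at 10.3 ± 1.41 CPM in curcumin-treated and 10.7 ± 1.87 CPM in untreated cells (SD, n = 3 each). With the length trend removed, POLR3GL was called lower, at -0.87 (adjusted p = 0.0095).

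POLR3C, POLR3D, POLR3E and POLR3F were not called, with log2 fold changes of 0.42, -0.21, -0.36 and 0.20. POLR3C and POLR3F belong to the initiation trimer of Pol III, while POLR3D and POLR3E form another pair. POLR3C was called without curcumin replicate 3 (0.54, adjusted p = 0.021), and POLR3E without curcumin replicate 1 (-0.57, adjusted p = 0.026).

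The largest subunits can be set against each other within a library. POLR1A over POLR2A was 0.0597, 0.0671 and 0.0694 in curcumin-treated libraries, against 0.204, 0.238 and 0.206 in untreated libraries. POLR3A over POLR2A was 0.0889, 0.0805 and 0.0827 in curcumin-treated libraries, against 0.141, 0.129 and 0.120 in untreated libraries. Both ratios were lower after curcumin with no overlap. These ratios, and the others given, were chosen after the values had been seen and carry no test. The trend with transcript length was not removed from them.

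**Figure D3:**
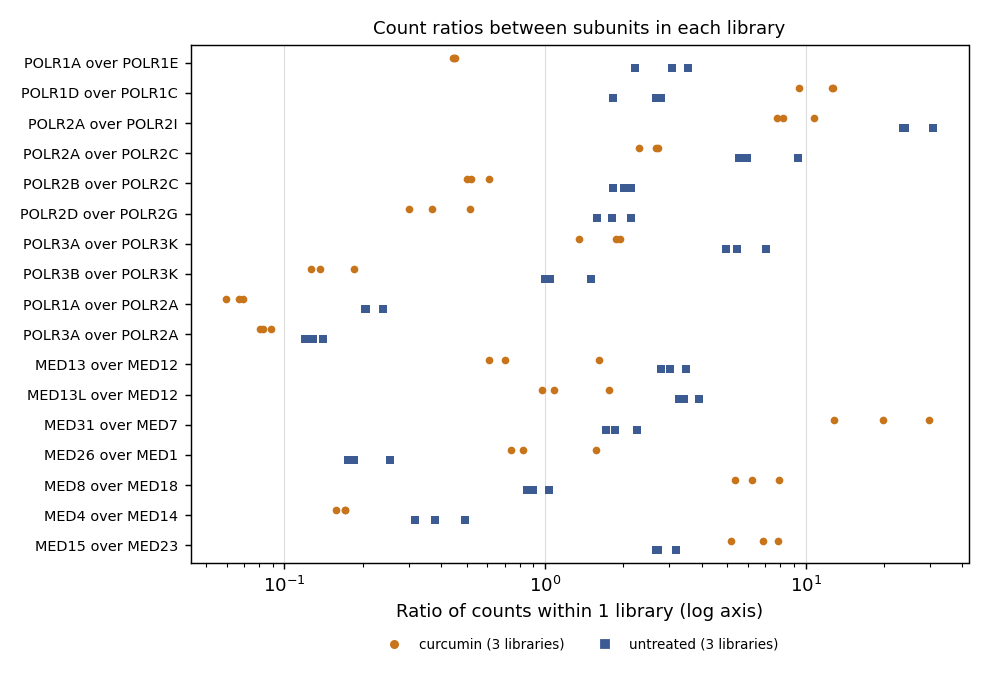
Ratio of the counts of paired subunits within each library, on a log axis, for curcumin-treated and untreated libraries (3 each). The trend with transcript length was not removed. MED7 had 12 to 24 counts in curcumin-treated libraries. The groups did not overlap in any pair drawn; POLR1A over POLR1E lies at 0.442 to 0.452 in curcumin-treated and at 2.21 to 3.53 in untreated libraries, and MED31 over MED7 lies at 12.8 to 29.8 in curcumin-treated and at 1.72 to 2.26 in untreated libraries.

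Mediator's head module contacts Pol II. Of its 7 members here, 1 was higher, 2 were lower and 4 were not called, with a median of -0.54. MED18 (chr1:28329002-28335967, plus strand), which forms a movable jaw with MED20, had 5.91, 5.87 and 12.3 CPM in curcumin-treated cells, against 24.4, 23.1 and 19.0 CPM in untreated cells. It was lower in all curcumin-treated libraries, least so in replicate 3, with a log2 fold change of -1.47 ± 0.29 (adjusted p = 0.0019). MED6 had 11.8, 13.9 and 16.9 CPM in curcumin-treated cells, against 27.6, 24.8 and 20.2 CPM in untreated cells. The groups did not overlap, and the log2 fold change was -0.77 ± 0.20 (adjusted p = 0.0092). MED8 had 36.6, 46.5 and 65.7 CPM in curcumin-treated cells, against 20.8, 20.9 and 19.8 CPM in untreated cells. The untreated libraries were close together and all lower, with a log2 fold change of 1.28 ± 0.21 (adjusted p = 0.00066). It was 0.45 and not called with library size alone (adjusted p = 0.064).

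In yeast, Med8 tethers Med18 to the head. MED8 over MED18 was 6.20, 7.92 and 5.35 in curcumin-treated libraries, against 0.852, 0.902 and 1.04 in untreated libraries. MED17, the central subunit of the head, had 23.2, 31.6 and 47.8 CPM in curcumin-treated cells, against 49.0, 56.0 and 47.5 CPM in untreated cells. Curcumin replicate 3 alone reached the untreated level, and MED17 was not called (-0.57 ± 0.24, adjusted p = 0.065). Without that library it was called (-0.89, adjusted p = 0.0022), as it was with no filter (-0.65, adjusted p = 0.01), with the replicate block (-0.63, adjusted p = 0.035), with library size alone (-1.40, adjusted p = 0.00019) and with the 100 most abundant genes left out of it (-0.95, adjusted p = 0.0044). MED11, MED19 and MED20 were not called, at -0.54, 0.48 and -0.41, although the groups of MED19 did not overlap. With the length trend removed, MED11 was called at -1.59 (adjusted p = 0.0061).

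In the middle module, 3 of 8 members were higher, 3 lower and 2 were not called. MED4 (chr13:48053323-48095131, minus strand) had 10.2, 9.76 and 8.13 CPM in curcumin-treated cells, against 27.5, 24.9 and 20.1 CPM in untreated cells. It was lower in all curcumin-treated libraries, with a log2 fold change of -1.37 ± 0.20 (adjusted p = 0.0003). MED7 (chr5:157137412-157159019, minus strand) had 1.35, 0.952 and 1.88 CPM in curcumin-treated cells, against 6.03, 4.89 and 4.49 CPM in untreated cells. Its groups did not overlap, and it had a log2 fold change of -1.88 ± 0.39 (adjusted p = 0.0023). MED1, the contact of nuclear hormone receptors, had 34.5, 46.0 and 37.2 CPM in curcumin-treated cells, against 57.3, 86.8 and 80.8 CPM in untreated cells. All curcumin-treated libraries were lower, with a log2 fold change of -0.93 ± 0.19 (adjusted p = 0.0023), and of -0.45 after removal of the length trend (adjusted p = 0.085).

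MED26 (chr19:16574907-16629062, minus strand), which recruits elongation factors, had 25.6, 37.9 and 58.2 CPM in curcumin-treated cells, against 14.6, 15.2 and 14.99 CPM in untreated cells. The curcumin-treated libraries were all higher and widely spread, with a log2 fold change of 1.44 ± 0.27 (adjusted p = 0.0012). MED31 (chr17:6643315-6651634, minus strand), which binds MED7 in the complex, had 17.3, 28.3 and 37.2 CPM in curcumin-treated cells, against 10.4, 11.1 and 8.30 CPM in untreated cells. It was higher in every curcumin-treated library, by 1.48 ± 0.27 on the log2 scale (adjusted p = 0.0012). MED10 had 29.8, 28.9 and 45.3 CPM in curcumin-treated cells, against 22.6, 19.4 and 21.2 CPM in untreated cells. It did not overlap, with a log2 fold change of 0.72 ± 0.20 (adjusted p = 0.012), but of -0.09 with library size alone and -0.12 with the length trend removed.

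MED31 over MED7 was 12.8, 29.8 and 19.8 in curcumin-treated libraries, against 1.72, 2.26 and 1.85 in untreated libraries. MED7 had only 18, 12 and 24 counts in the curcumin-treated libraries, so the size of this ratio there is imprecise. MED26 over MED1 was 0.742, 0.822 and 1.57 in curcumin-treated libraries, against 0.255, 0.175 and 0.185 in untreated libraries. Both ratios were higher in every curcumin-treated library than in any untreated one, with the trend with transcript length left in. MED21 and MED9 were not called, at 0.07 and -0.48, but MED9 was called without curcumin replicate 3 (-0.83, adjusted p = 0.0054).

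MED14, the scaffold that joins head, middle and tail, had 59.4, 57.3 and 51.6 CPM in curcumin-treated cells, against 56.0, 65.8 and 63.6 CPM in untreated cells. The groups overlapped, with a log2 fold change of -0.14 ± 0.14 (adjusted p = 0.43), and 0.57 after removal of the length trend (adjusted p = 0.016). MED4 over MED14 was 0.171, 0.170 and 0.158 in curcumin-treated libraries, against 0.491, 0.378 and 0.316 in untreated libraries.

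MED27, MED28, MED29 and MED30 lie where head and tail meet. MED30 had 19.4, 23.4 and 24.5 CPM in curcumin-treated cells, against 13.9, 11.8 and 10.3 CPM in untreated cells. It was higher in all curcumin-treated libraries, by 0.90 ± 0.20 on the log2 scale (adjusted p = 0.003), but its value was 0.09 with library size alone and -0.04 with the length trend removed. MED27 had 30.6, 35.4 and 32.1 CPM in curcumin-treated cells, against 24.8, 25.3 and 21.6 CPM in untreated cells. It did not overlap (0.45 ± 0.16, adjusted p = 0.032), but its value was -0.36 with library size alone and -0.21 with the length trend removed. The call on MED27 was lost without curcumin replicate 2 (adjusted p = 0.13), untreated replicate 1 (0.083) or untreated replicate 3 (0.13).

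MED28 had 29.8, 35.2 and 37.7 CPM in curcumin-treated cells, against 51.5, 47.7 and 53.2 CPM in untreated cells. All curcumin-treated libraries were lower, with a log2 fold change of -0.57 ± 0.15 (adjusted p = 0.01), whereas the value was 0.24 with the length trend removed. MED29 was not called, at 39.3 ± 2.64 CPM in curcumin-treated and 43.8 ± 2.15 CPM in untreated cells (SD, n = 3 each).

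The tail module binds activators. MED15 had 122, 115 and 108 CPM in curcumin-treated cells, against 76.7, 75.8 and 80.4 CPM in untreated cells. It was higher in all curcumin-treated libraries, by 0.57 ± 0.13 on the log2 scale (adjusted p = 0.0041), but its value was -0.23 with library size alone. MED25 had 126, 144 and 110 CPM in curcumin-treated cells, against 96.5, 92.9 and 95.2 CPM in untreated cells. Its groups did not overlap (0.42 ± 0.14, adjusted p = 0.029), but its value was -0.38 with library size alone, and 0.20 without a call after removal of the length trend (adjusted p = 0.29). Leaving out any 1 library other than curcumin replicate 3 ended the call on MED25, with adjusted p of 0.071 and 0.17 without curcumin replicates 1 and 2, and of 0.084, 0.064 and 0.074 without untreated replicates 1, 2 and 3.

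MED16 had 101, 74.0 and 50.03 CPM in curcumin-treated cells, against 118, 128 and 114 CPM in untreated cells. The curcumin-treated libraries were all lower but spread widely (-0.68 ± 0.22, adjusted p = 0.025), and the adjusted p was 0.07, 0.058 and 0.063 without curcumin replicate 2, untreated replicate 1 and untreated replicate 2. MED23, a contact of growth signalling through ETS factors, had 17.9, 14.7 and 20.8 CPM in curcumin-treated cells, against 24.2, 28.4 and 29.5 CPM in untreated cells. It was lower in all curcumin-treated libraries (-0.62 ± 0.19, adjusted p = 0.017), with adjusted p of 0.071 and 0.058 without curcumin replicate 2 and untreated replicate 3. Removing the length trend ended both calls, at -0.60 for MED16 (adjusted p = 0.056) and -0.22 for MED23 (adjusted p = 0.33). MED24 averaged 87.4 ± 13.3 CPM in curcumin-treated and 91.8 ± 15.5 CPM in untreated cells (SD, n = 3 each) and was not called. MED15 over MED23 was 6.84, 7.84 and 5.18 in curcumin-treated libraries, against 3.17, 2.67 and 2.72 in untreated libraries.

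**Figure D4:**
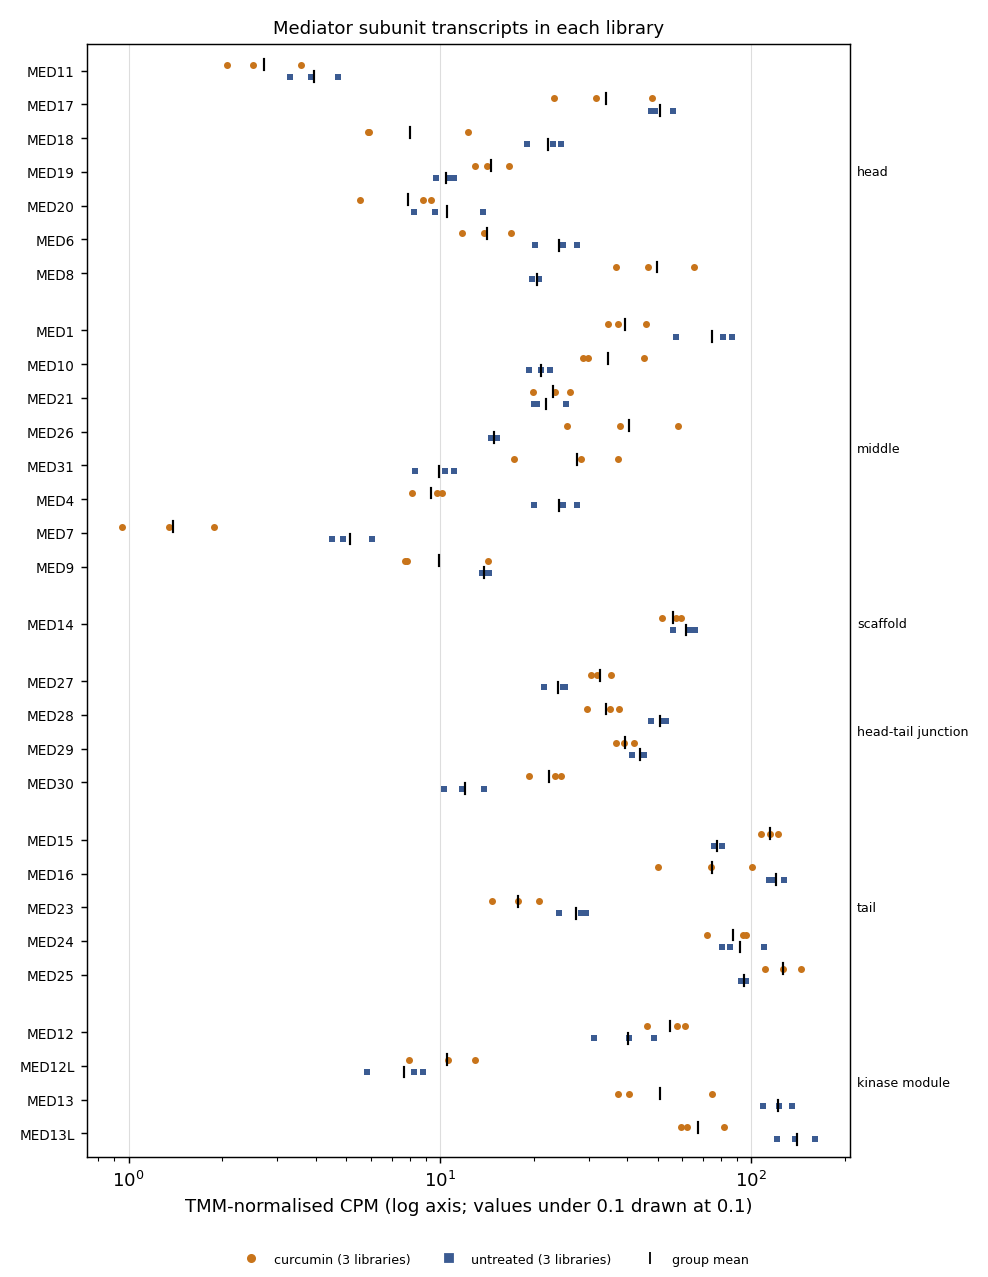
Level of each Mediator subunit in every library, in TMM-scaled CPM on a log axis, with curcumin-treated libraries (3) and untreated libraries (3) drawn in different colours; black bars are group means and values under 0.1 CPM are drawn at 0.1. MED7 lies at 0.952 to 1.88 CPM in curcumin-treated and at 4.49 to 6.03 CPM in untreated libraries, while the points of MED14, MED21, MED24 and MED29 lie close together or mixed.

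The kinase module joins a kinase, CDK8 or CDK19, and cyclin C (CCNC) to MED12 or MED12L and MED13 or MED13L. MED13, which links the module to Mediator, had 37.4, 40.5 and 74.7 CPM in curcumin-treated cells, against 109, 122.5 and 136 CPM in untreated cells. It was lower in all curcumin-treated libraries, least so in replicate 3, with a log2 fold change of -1.27 ± 0.25 (adjusted p = 0.0017). Its paralog MED13L had 59.3, 62.1 and 81.5 CPM in curcumin-treated cells, against 121, 138 and 160 CPM in untreated cells. It did not overlap either, with a log2 fold change of -1.05 ± 0.17 (adjusted p = 0.0006). With the length trend removed, MED13 and MED13L were not called, at -0.50 (adjusted p = 0.051) and -0.15 (adjusted p = 0.37).

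MED12, which activates the kinase, had 61.1, 57.6 and 46.3 CPM in curcumin-treated cells, against 31.1, 40.6 and 48.8 CPM in untreated cells. Curcumin replicate 3 lay below untreated replicate 3, and MED12 was not called (0.45 ± 0.19, adjusted p = 0.07). It was called without curcumin replicate 3 (adjusted p = 0.028) and without untreated replicate 3 (adjusted p = 0.037). Removing the length trend also gave a call (1.10, adjusted p = 0.0015), but its value was -0.35 with library size alone. MED12L had 7.92, 10.6 and 13.0 CPM in curcumin-treated cells, against 5.84, 8.80 and 8.26 CPM in untreated cells. Its groups overlapped and it was not called (0.46 ± 0.27, adjusted p = 0.16). With the length trend removed, MED12L was called at 1.26 (adjusted p = 0.0018). The kinase module then had 2 calls higher and 0 lower, against 0 higher and 2 lower with the trend left in.

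MED13 over MED12 was 0.612, 0.702 and 1.61 in curcumin-treated libraries, against 3.49, 3.02 and 2.78 in untreated libraries. Of the partners, CCNC was higher (0.57 ± 0.17, adjusted p = 0.017), CDK19 lower (-0.68 ± 0.18, adjusted p = 0.0099) and CDK8 not called (-0.23 ± 0.15, adjusted p = 0.22). With library size alone CCNC had -0.23 and was not called. With the length trend removed 0 of the 3 partners were called.

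Levels per kilobase allow a rough comparison between genes, here with the uncertain POLR2J copies set aside. The length used is that of the longest annotated transcript, which need not be the one expressed. POLR2E, POLR2G and POLR2C were the highest after curcumin, at 90.2, 75.5 and 67.9 CPM per kilobase. In untreated cells POLR2A led at 65.4 CPM per kilobase, before POLR2E at 51.1 and POLR2G at 44.0. MED7 and POLR3B were lowest after curcumin, at 0.58 and 0.64 CPM per kilobase, against 2.14 and 2.71 in untreated cells. The spread of POLR2A in untreated libraries, 371 to 509 CPM, was wide enough that small gaps in this order should not be read as differences.

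As a share of all counts, without TMM factors, the members took 0.216 ± 0.0169% of curcumin-treated and 0.380 ± 0.0290% of untreated libraries (SD, n = 3 each). The polymerase rows took 0.132 ± 0.0154% in curcumin-treated and 0.216 ± 0.0187% in untreated libraries, and the Mediator rows took 0.0836 ± 0.00164% in curcumin-treated and 0.164 ± 0.0104% in untreated libraries. For each of these 3 shares the groups did not overlap, and a two-sided exact permutation test gave p = 0.1, the smallest that 3 against 3 allows. With library size alone the median log2 fold change was -0.91 for the members and -0.84 for all genes tested. A lower share was thus not particular to the members. The pair shared by Pol I and Pol III took a larger share after curcumin, 0.0148% against 0.0116% in untreated libraries. The kinase module took 0.0138% in curcumin-treated and 0.0410% in untreated libraries.

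Fold changes ran with transcript length. Across the 60 members, Spearman's rho between the log2 fold change and the length of the longest transcript was -0.51, and across 13196 protein-coding genes tested it was -0.45. Of 31 members under 3000 bases, 17 were higher and 6 lower (54.8% and 19.4%), with a median of 0.48. Of all protein-coding genes under that length, 43.2% were higher and 13.8% lower, with a median of 0.49. Of 29 members of at least 3000 bases, 3 were higher and 13 lower (10.3% and 44.8%), with a median of -0.57. Of all protein-coding genes of at least that length, 15% were higher and 41.4% lower, with a median of -0.41.

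Once the trend of each library with length had been removed, rho was 0.02 across the members, -0.22 across the polymerases and 0.25 across Mediator, and 10 members were called higher and 14 lower. Over all genes 47.9% were then called, 25.1% higher and 22.7% lower. The polymerases had 3 calls higher and 9 lower, and Mediator 7 higher and 5 lower. POLR1D, POLR2C and POLR2E were the 3 polymerase subunits still higher.

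**Figure D5:**
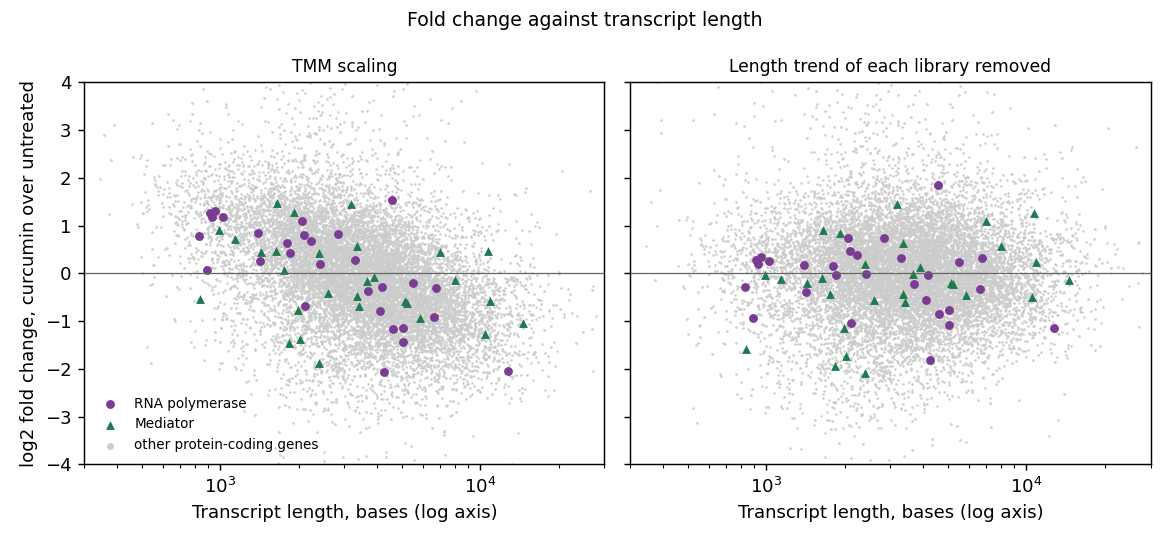
Log2 fold change, curcumin over untreated, against transcript length in bases on a log axis, for the polymerase and Mediator members reported singly over the protein-coding genes tested in grey, with TMM scaling (left) and with the length trend removed (right); the vertical axis stops at 4 in both directions and POLR2J2 is not drawn. Long members such as POLR1A and MED13 lie low and short ones such as POLR2I lie high, along the slope of the other genes in the left panel (rho of -0.51 for the members and -0.45 for all), and in the right panel rho is 0.02 for the members, -0.22 for the polymerases and 0.25 for Mediator.

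Other genes of the same pathways were counted from lists of initiation, elongation and assembly factors. Of 31 general initiation factors of Pol II, 7 were higher and 8 lower. TAF7 and TAF10, both subunits of TFIID, were higher by 1.88 ± 0.21 (adjusted p = 7.1e-05) and 1.86 ± 0.14 (adjusted p = 1.4e-05), while TAF1, the largest TFIID subunit, was lower (-1.43 ± 0.18, adjusted p = 0.00012). The partners in TFIIA also parted, with GTF2A2 at 1.39 ± 0.15 (adjusted p = 6.3e-05) and GTF2A1 at -1.40 ± 0.17 (adjusted p = 8.8e-05).

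Of 23 elongation factors, 7 were higher and 8 lower. LEO1, a subunit of the PAF1 complex, had a log2 fold change of -2.40 ± 0.24 (adjusted p = 3.5e-05). CDK9 and CCNT1, the kinase and cyclin that release paused Pol II, had -1.66 ± 0.14 (adjusted p = 1.8e-05) and -1.34 ± 0.22 (adjusted p = 0.00053). NELFE, a subunit of the factor that holds Pol II paused, had 1.47 ± 0.14 (adjusted p = 2.5e-05).

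Of 6 Pol I factors, 2 were higher and 3 lower, and RRN3 was not analysed here. UBTF, which binds ribosomal DNA, had -0.92 ± 0.14 (adjusted p = 0.0003), and TAF1D had 1.07 ± 0.15 (adjusted p = 0.00021). Of 16 Pol III factors, 4 were higher and 4 lower, with GTF3A, which binds the 5S gene, at 1.15 ± 0.18 (adjusted p = 0.00039) and GTF3C1 at -0.98 ± 0.15 (adjusted p = 0.00035). Of 6 polymerase assembly factors, 1 was higher, GPN1 at 1.21 ± 0.21 (adjusted p = 0.00085), and 2 were lower, RPAP1 at -0.97 ± 0.19 (adjusted p = 0.0017) and RPAP2 at -0.75 ± 0.20 (adjusted p = 0.0097). With library size alone, 3 of the initiation factors were higher and 18 lower, and 1 of the elongation factors was higher and 16 lower. The Pol I factors then had 0 higher and 3 lower, the Pol III factors 1 and 9, and the assembly factors 0 and 5. TAF1D and GPN1 were thus no longer called higher. Over all genes tested 9.62% were higher and 56.5% lower in that setting.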

How the data were processed

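The authors deposited 1 table of estimated counts per gene for 6 libraries, with no scaling between libraries, as read from its values. Which aligner and counter were run, and whether strand was used, is not given in the sources used here. All 35106 identifiers are human Ensembl genes, and the table was read as human, although GRCm38 and mm10, which are mouse builds, stand in the submitters' processing notes. Per the labels' protocols, RNA was extracted with Trizol and chloroform and libraries were made with a SMARTer mRNA-Seq kit. Genes that overlap others or have close copies are uncertain.

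Counts were rounded, filtered with filterByExpr (minimum count 10, total 15), normalised by TMM, and fitted in edgeR 4.0.16 (R 4.3.3) with a quasi-likelihood test of curcumin over untreated and Benjamini-Hochberg adjustment over all genes. Standard errors are |log2 fold change| over the square root of F. Replicates differed by more than sampling noise, with a chi-square per degree of freedom of at least 11.6. A floor of 3 counts is 0.224 to 0.238 CPM in curcumin-treated and 0.114 to 0.123 CPM in untreated libraries, and covers counting error only. Length was that of the longest GENCODE release 29 transcript other than retained-intron and nonsense-mediated-decay types, a choice made after the annotation had been seen. The length trend was removed by loess offsets (span 0.3). The test was checked on simulated counts of 3 against 3 libraries. It called 53 of 100 genes changed 2-fold, 87 of 100 changed 4-fold and 16 of 13518 left unchanged. A member without a call is therefore not shown to be unchanged. DESeq2 1.42.0 was an alternative.

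Every member is counted, and the values of 1 are not reported here. Values in every library are given for up to 3 higher and 3 lower members of each class by smallest adjusted p, the largest subunits, paralog pairs, the POLR2J copies and certain Mediator subunits. For the other lists, the genes named are among the smallest adjusted p in each direction. Members and lists were chosen with earlier results of these data known.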

Additional observations from a re-analysis of the deposited data

How the results depend on the processing

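The scale decided the balance of calls. With library size alone the polymerases had 2 calls higher and 16 lower (median -0.61), Mediator 2 and 18 (median -0.96), and all genes 1320 and 7747. With the 100 most abundant genes left out of the library size the polymerases had 7 and 14 (median -0.16) and Mediator 4 and 15 (median -0.52), where all genes had 2523 and 5604, and 9 members lost their call. With the length trend removed the polymerases had 3 higher (median -0.039) and Mediator 5 lower. Leaving out 1 library in turn gave 11 to 13 polymerase calls higher and 8 to 10 lower, a polymerase median of 0.028 to 0.29, 6 to 9 Mediator calls higher and 8 to 12 lower, and a Mediator median of -0.22 to -0.15. DESeq2 gave 4066 genes higher and 3908 lower, kept 57 of 60 members as they were and added 3 calls. Libraries with the same replicate number shared only a number (correlations of deviations 0.040, 0.023 and 0.111). With the replicate number as a block, 3683 genes were higher and 4011 lower, and the polymerases had 12 higher and 10 lower and Mediator 8 and 11. That block left 58 of 60 members as they were and added calls on MED17 and the POLR2J3 row ENSG00000285437.

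Directions of single members turned as follows, with the cause not tested beyond the construction of each setting. With library size alone the log2 fold change was -0.13 for POLR1E, -0.00025 for POLR2F, -0.17 for POLR2H, -0.74 for POLR2L, -0.024 for POLR2G, -0.56 for POLR2J4, -0.38 for POLR3C, -0.61 for POLR3F, -0.51 for POLR3G, -0.33 for MED19, -0.094 for MED10, -0.73 for MED21, -0.36 for MED27, -0.23 for MED15, -0.38 for MED25, -0.35 for MED12 and -0.36 for MED12L. Without the 100 most abundant genes it was -0.29 for POLR2L, -0.11 for POLR2J4, -0.16 for POLR3F, -0.073 for POLR3G and -0.29 for MED21. With no filter it was -0.010 for POLR2L and -0.0053 for MED21. With the length trend removed it was -0.95 for POLR2L, 0.31 for POLR2A, -0.28 for POLR2G, -0.40 for POLR2J4, -0.043 for POLR3C, 0.23 for POLR3D, -0.011 for POLR3F, -0.090 for MED19, -0.12 for MED10, -0.44 for MED21, 0.57 for MED14, -0.21 for MED27, 0.24 for MED28, -0.036 for MED30 and 0.12 for MED24. With 1 library left out, POLR2L ran from -0.15 to 0.26, POLR2J4 from -0.30 to 0.53, MED21 from -0.025 to 0.18, and MED24 from -0.17 to 0.061. Depth is low for the POLR2J copies POLR2J2 and POLR2J4, with at most 46 and 27 counts in any library. In curcumin-treated libraries it is also low for MED7 and POLR3B, with at most 24 and 52 counts.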
